A study of Mus musculus with 2 samples.

Results

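Mucous secretory cells of the p63-KO esophageal epithelium were the p63-KO cells with much Agr2 and Muc5b RNA and little RNA of neuroendocrine cells, ionocytes or ciliated cells. They were 160 of the 1848 p63-KO cells with an Epcam UMI that passed the filter on cells (8.66%, exact 95% binomial interval 7.42 to 10.0). Both libraries together held 8855 cell barcodes, 8209 of which passed. A UMI (unique molecular identifier) stands for 1 captured RNA molecule. A cell passed with 500 or more genes, 1000 or more UMIs and no more than 10% of UMIs from mitochondrial genes. Levels per cell are given as CP10K, UMIs per 10000 UMIs of that cell. The rule asked for Agr2 of at least 12 CP10K and Muc5b of at least 1 CP10K. It also asked for Chgb under 5, Foxi1 under 1 and the sum of the cilium genes Dnah12, Spag16, Rp1, Dynlrb2 and Cfap54 under 10 CP10K. The cells were thus chosen by the measured levels of these genes, so those levels and every contrast with the remaining epithelial cells are descriptions without a test.

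The study profiled single cells of C57BL/6 mouse esophageal epithelium at E18.5, shortly before birth, with 1 droplet library of 3' transcript ends per genotype. The p63-KO library is labelled with the genotype p63-CreER/p63-CreER. The library titled wild type came from littermates labelled p63-CreER, so both groups carried the CreER allele of p63. The number of embryos in each library is not given in the sources used here. With 1 library per genotype no difference between genotypes has a replicate check, and all intervals below cover counting error only.

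Trp63, which encodes p63, a transcription factor of basal cells, was at 72.6 CPM (UMIs per 1e6 UMIs of the summed cells, from 620 UMIs) in the mucous cells and at 302 CPM in wild-type Epcam-positive cells. Reads of 3' ends do not show whether these transcripts encode a working protein, since the position of the allele's change relative to the counted end is not given in the sources used here. Krt5 and Krt14, keratins of basal cells, were at 1 and 0 UMIs in the 160 mucous cells, against 761 and 292 CPM in wild-type Epcam-positive cells.

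Mucous cells make gels that coat wet epithelia. Their gel-forming mucins are very large proteins that are folded and joined through disulfide bonds in the endoplasmic reticulum (ER), decorated with sugars on serine and threonine in the Golgi, and packed into granules. Agr2 is an ER protein of the disulfide isomerase family needed for mucin production, Tff2 is a small trefoil protein secreted with mucins, and Creb3l1 is a membrane-bound transcription factor that promotes secretory capacity. The esophagus of the adult mouse has a squamous lining without such cells.

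Stress sensors of the ER act on gene promoters through short DNA motifs, and the promoters of genes of protein folding and transport were therefore read from RefSeq (build GRCm38.p6). The window was the 250 bases before the start of the gene, on both strands. The motifs were TGACGTG, bound by factors of the ATF6 and Creb3 families, and the ER stress response element, CCAAT and CCACG with 9 bases of any kind between them. The 2 motifs can share letters, where CCACG of the element runs on into CACGTCA, the reverse of TGACGTG. The ER stress response element was found in 9 of the 32 promoters available for a list of ER folding genes (28.1%), against 35 of 27025 genes (0.130%). TGACGTG was found in 3 of those 32 (9.38%), in 4 of the 36 promoters available for a list of transport genes (11.1%) in 499 of 27025 genes (1.85%), and in 258 of the 9124 genes with a promoter that were measured in these cells (2.83%). TGACGTG was also in 1 of 19 promoters of O-glycan enzymes (5.26%) and 1 of 16 of secretory transcription factors (6.25%). The stress response element was in 0 of the promoters of these 2 lists and of the transport list. None of the 20 promoters of squamous differentiation genes held either motif. With shares this low over all genes, nothing is read from 0 matches in so short a list. Of the genes that chose or mark the mucous cells, promoters of Agr2 and Spdef were in the table. That of Agr2 held neither motif, and that of Spdef held TGACGTG. Such matches are descriptions of letters and not sites of binding. The measured folding genes with a match were all under 2-fold higher in mucous cells than in the other epithelial p63-KO cells. Of the transport genes with TGACGTG, Sec24d and Kdelr3 were past 2-fold, and Srpr and Mia3 were not. A link between motifs and RNA levels was not tested.

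The promoters shown were taken from those with a motif match, for 2 folding genes and 2 transport genes whose RNA levels are described later. They are printed 5′ to 3′ on the gene's strand, and capitals mark the motif letters.
Hspa5 (ER chaperone), chr2:34771840-34772089, plus strand: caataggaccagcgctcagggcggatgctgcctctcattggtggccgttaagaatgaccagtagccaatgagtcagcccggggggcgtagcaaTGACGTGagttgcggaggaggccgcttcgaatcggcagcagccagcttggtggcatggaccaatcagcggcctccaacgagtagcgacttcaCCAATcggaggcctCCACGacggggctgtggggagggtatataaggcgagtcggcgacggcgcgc
Pdia6 (disulfide isomerase), chr12:17266339-17266588, plus strand: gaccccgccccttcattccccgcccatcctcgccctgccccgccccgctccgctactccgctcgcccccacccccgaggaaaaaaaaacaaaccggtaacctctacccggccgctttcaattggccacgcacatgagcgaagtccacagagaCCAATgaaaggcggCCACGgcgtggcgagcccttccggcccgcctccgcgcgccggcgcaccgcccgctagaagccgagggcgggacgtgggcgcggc
Sec24d (coat of vesicles leaving the ER), chr3:123267246-123267495, plus strand: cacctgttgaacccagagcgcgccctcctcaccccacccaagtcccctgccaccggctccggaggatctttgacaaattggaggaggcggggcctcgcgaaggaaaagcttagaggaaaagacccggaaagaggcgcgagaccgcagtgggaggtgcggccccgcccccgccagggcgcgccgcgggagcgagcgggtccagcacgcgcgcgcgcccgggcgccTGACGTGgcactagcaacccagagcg
Kdelr3 (receptor that returns ER proteins), chr15:79516158-79516407, plus strand: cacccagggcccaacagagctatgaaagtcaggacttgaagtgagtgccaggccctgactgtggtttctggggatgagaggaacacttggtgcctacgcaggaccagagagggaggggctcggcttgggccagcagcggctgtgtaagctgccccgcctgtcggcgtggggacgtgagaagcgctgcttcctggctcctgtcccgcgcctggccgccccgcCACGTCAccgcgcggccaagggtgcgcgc
Hspa5 held both motifs, Pdia6 the stress response element, and Sec24d and Kdelr3 TGACGTG, which in Kdelr3 reads CACGTCA because it lies on the other strand.

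Mucous cells had more UMIs per cell than the other sets. A mucous cell had a median of 48829.5 UMIs (range 1070 to 125214) and 7686.5 genes. The other Epcam-positive p63-KO cells, 1688 in all, had a median of 23098.5 UMIs, and wild-type Epcam-positive cells one of 11398. Shares of cells with a UMI are therefore also given after thinning every cell to 2000 UMIs, with 2 mucous cells, 15 other p63-KO cells and 52 wild-type cells left out as shallower. As a measure of free RNA, 459 p63-KO cells without an Epcam UMI and with at least 10 CP10K of Col1a1, Col3a1 and Mfap4 together served as fibroblast-like cells (median 10824 UMIs, 6 left out by thinning). The libraries shared 8 barcodes, and 1 of them belonged to a mucous cell.

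The rule met a continuum of levels, not a gap. Agr2 reached 12 CP10K in 282 p63-KO cells, 170 of these also reached 1 CP10K of Muc5b, and the limits on Chgb, Foxi1 and cilium genes removed 10. A further 78 passing cells had enough Muc5b but less Agr2 than the threshold. Just inside the Agr2 threshold, 18 mucous cells with 12 to 15 CP10K had a median of 13.3 CP10K of Tff2, a gene the rule did not use. Just outside, 14 cells with 9 to 12 CP10K of Agr2 and enough Muc5b had a median of 7.60 CP10K. At the Muc5b threshold the medians of Tff2 were 13.2 CP10K in 14 cells just inside (1 to 1.5 CP10K) and 11.5 CP10K in 23 cells just outside (0.5 to 1 CP10K). Summed over these cells, Tff2 had the other order, 1262 CPM inside and 1636 CPM outside. Only 2 mucous cells qualified with 1 Muc5b UMI, and 124 had 10 or more. No wild-type cell met the rule, 0 of 5787, which allows a share of up to 0.0637% (exact 95% upper limit; 3 cells would be 0.0518%). No wild-type cell reached the Agr2 threshold, and 4 had a Muc5b UMI.

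**Figure D1:**
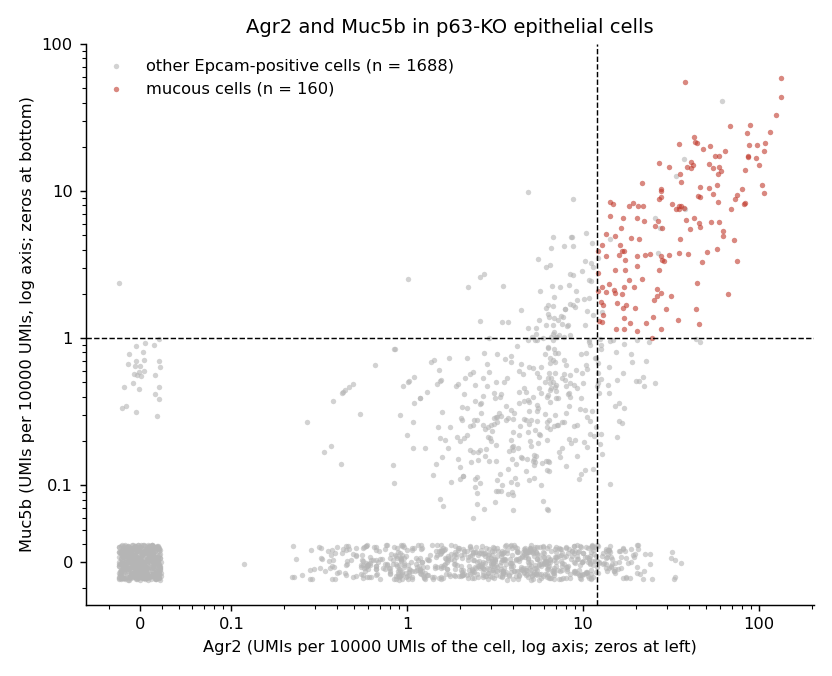
Agr2 (x axis) and Muc5b (y axis) in each Epcam-positive p63-KO cell, in UMIs per 10000 UMIs on log axes, with cells at 0 spread at the left and bottom edges and the thresholds as dashed lines. The 160 mucous cells (red) fill the upper right corner without a gap to the 1688 other cells (grey), and the few grey points inside it were removed by the limits on Chgb, Foxi1 or cilium genes.

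All 6 genes that mark mucous cells were present, at unequal breadth. Levels of a gene set are summed over its cells and given in CPM with exact Poisson intervals. Muc5b, a gel-forming mucin (chromosome 7, 141839070 to 141873084), was at 812 CPM (793 to 831) in mucous cells and 41.8 CPM in the other epithelial p63-KO cells, 19.4-fold higher (18.6 to 20.3). A mucous cell had a median of 6.12 CP10K of Muc5b, and the 5th and 95th percentiles over cells were 1.28 and 23.4. Agr2 (chromosome 12, 35992907 to 36004087) was at 3282 CPM against 491 CPM, with a median of 32.0 CP10K per mucous cell. These folds restate the rule.

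Tff2 and Creb3l1, which the rule did not use, were found in nearly every mucous cell. Tff2 (chromosome 17, 31141049 to 31144282) was at 3040 CPM against 451 CPM, 6.73-fold higher (6.62 to 6.85), and had a UMI in 159 of 160 mucous cells. After thinning, Tff2 was seen in 93.04% of mucous cells, 31.6% of the other epithelial cells and 2.65% of fibroblast-like cells. Creb3l1 was at 1282 CPM against 418 CPM, 3.06-fold higher (2.997 to 3.13), and after thinning was seen in 86.7%, 39.8% and 21.4% of the same sets. Fibroblasts can express Creb3l1 themselves, so for this gene the last share is no measure of free RNA.

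Muc19 and Clca1 were found in part of the cells. Muc19, the gel-forming mucin of salivary glands, was at 59.8 CPM (511 UMIs) against 5.87 CPM, 10.2-fold higher (8.93 to 11.6). Muc19 had a UMI in 85 of 160 mucous cells, and after thinning in 10.8% of them, 0.837% of other epithelial cells and none of the fibroblast-like cells. Clca1, a secreted protease of mucus, was at 20.03 CPM (171 UMIs) against 6.15 CPM, and had a UMI in 45 of 160 mucous cells. After thinning, 1.90% of mucous cells kept a Clca1 UMI, near the level of 1 UMI in few cells, so no breadth is read from it. Among cells with mostly Y-linked RNA the log2 ratio of Clca1 was -0.24, against 1.56 over all cells. The name mucous is a label that follows Agr2 and Muc5b, which the rule set, and the identity of the cells was not tested. Tff2, Creb3l1 and Muc19 were not used by the rule. They are on the same marker list, chosen with earlier results of these data known, so they give no independent support. Cells with much Agr2 but little Muc5b also had Tff2 and Creb3l1, as described below. Of the 6 markers, Clca1 was seen in the fewest cells.

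All 6 markers were nearly absent from the wild-type epithelium. Among 74401007 UMIs of wild-type Epcam-positive cells there were 4 UMIs of Muc5b, 10 of Tff2, 13 of Muc19 and 1 of Clca1. Agr2 was at 3.82 CPM and Creb3l1 at 1.92 CPM in these wild-type cells. Agr2 was 860-fold higher in mucous cells (765 to 970) and Creb3l1 667-fold higher (566 to 792). For Clca1, with 1 wild-type UMI, the ratio was 1490 with an interval of 264 to 59193.

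Of other products that travel with mucins, Spink4 was found throughout and most others were low or missing. Spink4, a small protease inhibitor of mucous cells, was at 1566 CPM against 570 CPM, 2.75-fold higher (2.70 to 2.80), and had a UMI in all 160 mucous cells. Muc5ac, the gel-forming mucin of the stomach surface and airway goblet cells, had 57 UMIs (6.68 CPM against 1.504 CPM). Tff1, the trefoil protein of the stomach surface, was at 9.37 CPM against 1.39 CPM. Dmbt1, a scavenger protein of mucosal fluids, was at 6.44 CPM against 0.496 CPM. Muc2 and Muc6, gel-forming mucins of the intestine and of stomach glands, had 2 and 3 UMIs in the mucous cells, and Tff3, the trefoil protein of intestinal goblet cells, had 1. Zg16, Itln1, Retnlb and 4 more of the 18 granule partners on the list were at 0. Fcgbp, a mucus protein that binds to mucins, was at 26.7 CPM against 15.04 CPM, under 2-fold.

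Counts of called genes give the scale for the lists that follow. A gene was measured with at least 5 CPM in either set, and called at a fold of at least 2. Against the other Epcam-positive p63-KO cells, 159 of 11544 measured genes were higher in mucous cells (1.38%) and 1047 were lower (9.07%). The median log2 ratio of all measured genes, with 1 CPM added, was -0.10. Since the members were chosen in this contrast, nothing is read from the shares. Of the measured list genes, 3 of 3 gel-forming mucins and 5 of 6 granule partners were higher.

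Transcription factors of secretory cells were higher in part. Spdef, an Ets factor required for goblet cell maturation, was at 61.5 CPM against 19.5 CPM, 3.15-fold higher (2.84 to 3.49), and had a UMI in 136 of 160 mucous cells. After thinning, Spdef was seen in 13.3% of mucous cells, 3.35% of other epithelial cells and 0.221% of fibroblast-like cells. Bhlha15 (Mist1), a factor that scales up secretory machinery, was at 10.8 CPM against 4.39 CPM, and 1.40-fold higher among cells with mostly Y-linked RNA. Creb3l1, described above, is on the same list. Of 22 measured factors 4 passed 2-fold upward and 0 downward, around a median of 0.27 (log2).

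Several other factors known from mucous or secretory cells did not pass 2-fold or were not measured. Foxa3, a factor of goblet cells, had 35 UMIs in 26 of the 160 cells (4.10 CPM against 1.07 CPM), under the minimum for a measured gene. Foxa1, a pioneer factor of endoderm, was at 130 CPM against 104 CPM, and Foxa2 at 34.5 CPM against 51.0 CPM. Sox9, a factor of ducts and glands, was at 85.7 CPM against 44.1 CPM, 1.94-fold higher. Xbp1, the factor activated by the ER stress sensor Ire1, was at 161 CPM against 117 CPM. The total of Xbp1 transcripts does not show how much of it is in the active spliced form.

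Genes of protein folding in the ER were shifted upward as a group by less than 2-fold. Among 38 measured members, 5 passed 2-fold upward and 0 downward, 37 had a log2 ratio above 0, and the median was 0.63. Creb3l4, a transcription factor of the Creb3 family, had the highest ratio, at 67.1 CPM against 16.5 CPM, 4.07-fold (3.68 to 4.51). Pdia5, a disulfide isomerase, was at 178 CPM against 64.6 CPM, Dnajc10, a disulfide reductase with a J domain, at 444 CPM against 197 CPM, Sdf2l1, a cochaperone of Hspa5, at 152 CPM against 63.2 CPM, and Manf, an ER stress protein, at 592 CPM against 278 CPM. The abundant chaperones moved less. Hspa5 (BiP) was at 605 CPM against 350 CPM, 1.73-fold (1.68 to 1.78). Calr was at 965 CPM against 554 CPM and Hsp90b1 at 959 CPM against 627 CPM. Pdia6, whose promoter held the stress response element, was at 555 CPM against 319 CPM. Ern2, the epithelial Ire1 sensor of mucous cells, was at 107 CPM against 59.97 CPM in the other epithelial p63-KO cells and 0.390 CPM in wild-type ones.

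Genes of import into the ER and of transport to the Golgi had the same direction in every measured member. All 45 had a log2 ratio above 0 over the summed cells, with a median of 0.56, and 3 passed 2-fold. These were Kdelr3 at 102 CPM against 34.7 CPM, Sec11c, a subunit of the signal peptidase, at 257 CPM against 112 CPM, and Sec24d at 264 CPM against 124 CPM. Sec61b, a subunit of the channel into the ER, was at 1190 CPM against 743 CPM, 1.60-fold. Over all alternative settings, 42 to 45 genes of this list and 33 to 39 of the folding list had a ratio above 0. These counts are among the genes measured under each setting, whose number can differ.

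Part of the enzymes that build O-glycans on mucins were at least 2-fold higher. Among 24 measured enzymes, 6 passed 2-fold upward and 0 downward, 23 had a ratio above 0, and the median log2 ratio was 0.59. Galnt6, which starts O-glycans, was 8.36-fold higher (7.24 to 9.65), at 46.4 CPM against 5.55 CPM. Chst4, a sulfotransferase, was at 9.02 CPM (77 UMIs) against 0.832 CPM. Gcnt3, which makes branched core structures, was at 18.2 CPM against 3.91 CPM, and Fut2, a fucosyltransferase, at 125 CPM against 57.6 CPM. Galnt7, which adds to sugars already started, was at 996 CPM against 476 CPM, and Galnt5 at 56.1 CPM against 25.6 CPM. Among cells with mostly Y-linked RNA Galnt7 and Fut2 were 1.84-fold and 1.94-fold higher, just under 2-fold. St6galnac1, which caps mucin sugars with sialic acid, and B4galnt2 were at 0 in the mucous cells.

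A list of 22 genes that supply activated sugars was drawn up after values of these cells had been seen, and so describes them only. All 22 were measured, 5 of them past 2-fold upward and 1 downward. Gfpt1, the first enzyme of the hexosamine pathway that makes UDP-GlcNAc, was at 666 CPM against 265 CPM, 2.52-fold. Gnpnat1 and Pgm3, later enzymes of the same pathway, were at 48.8 CPM against 20.1 CPM and at 57.5 CPM against 27.1 CPM. Gmds, the first enzyme of GDP-fucose synthesis, was at 605 CPM against 243 CPM, and Hk2, a hexokinase, at 185 CPM against 79.3 CPM. The gene that was lower was Gfpt2, the second form of the first enzyme. Mgat5, a branching enzyme of N-glycans among the 15 genes with the highest ratios, was at 578 CPM against 215 CPM.

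Genes of granule fusion did not share this direction. Among 20 measured genes none passed 2-fold upward and 2 passed downward, and the median was 0.02 (log2). The 2 were Unc13d and Cadps, priming factors of regulated secretion. Cadps was at 13.4 CPM against 44.1 CPM, and 111 of its 114 UMIs in mucous cells came from 13 cells with neuroendocrine transcripts, described below.

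The remaining genes among the 15 with the highest ratios belong to none of the lists. Pdzrn4, a relative of ubiquitin ligases with a PDZ domain, was at 217 CPM against 28.5 CPM, 7.62-fold higher (7.15 to 8.12). Pdzrn4 was also at 126 CPM in wild-type Epcam-positive cells, unlike the mucous markers. Tmprss11d, an airway protease bound to the membrane, was at 217 CPM against 70.7 CPM. A2ml1, a protease inhibitor of stratified epithelia, was at 167 CPM against 60.5 CPM. Among cells with mostly Y-linked RNA A2ml1 was 1.48-fold higher, under 2-fold. Tmc5 was at 144 CPM against 52.6 CPM and Sidt1 at 114 CPM against 40.9 CPM. Prr16 was at 106 CPM against 38.7 CPM, and after thinning it was seen in 11.4% of mucous cells and 31.6% of fibroblast-like cells.

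Ion and water transport was represented by 5 genes past 2-fold upward and 0 downward among 16 measured. Car12, a carbonic anhydrase of the cell surface, was 11.0-fold higher (9.44 to 12.8), at 47.8 CPM against 4.35 CPM. Wild-type Epcam-positive cells had 68.6 CPM of Car12. Slc5a8, a transporter of short fatty acids, was at 25.2 CPM against 5.45 CPM, and Aqp5, a water channel of glands, at 61.0 CPM against 29.5 CPM. Cftr, the chloride channel, was lower in mucous cells, at 57.4 CPM against 105 CPM, under 2-fold. Muc16, a mucin bound to the membrane, was at 1059 CPM against 523 CPM, but 1.39-fold higher among cells with mostly Y-linked RNA. Muc1 and Muc4 were at 297 CPM against 207 CPM and 369 CPM against 306 CPM.

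**Figure D2:**
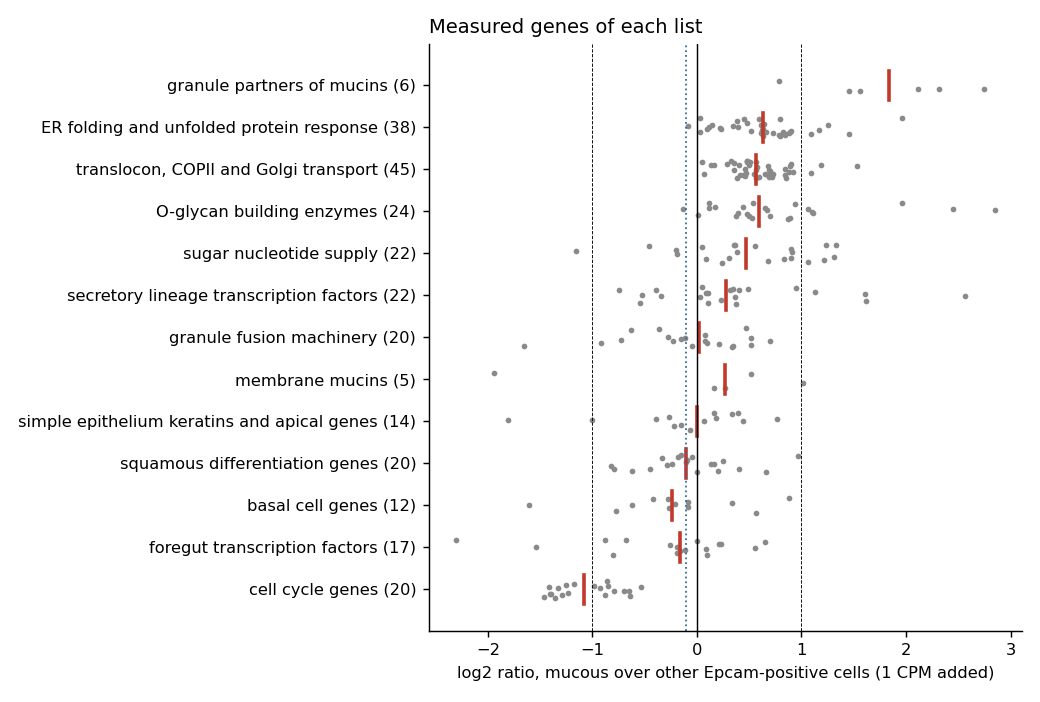
Log2 ratio between mucous cells and the other Epcam-positive p63-KO cells (x axis, 1 CPM added) for each measured gene of 13 lists (grey points, number of genes in brackets), with the list median in red, 2-fold as dashed lines and the median of all genes as a blue dotted line. The medians of the folding, transport and O-glycan lists were 0.63, 0.56 and 0.59, and that of the cell cycle list was -1.08.

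Alongside the secretory genes, mucous cells had several abundant keratins at about the levels of the remaining epithelium. Krt15, a keratin of basal cells, was at 4153 CPM against 4797 CPM. Krt13 and Krt4, keratins of the squamous esophageal lining, were at 2285 CPM against 2447 CPM and at 1375 CPM against 1370 CPM. Each of the last pair had a UMI in over 90% of mucous cells, 154 and 157 of 160, and after thinning Krt13 was seen in 82.3% and Krt4 in 75.3% of 158 cells. Fibroblast-like cells had 34.6 CPM of Krt13 and 17.4 CPM of Krt4. By kind of cell, Krt13 was at 2860 CPM against 2560 CPM with mostly Xist RNA and at 1623 CPM against 2233 CPM with mostly Y-linked RNA. Krt8 and Krt18, keratins of simple epithelia, were at 1355 CPM against 1291 CPM and at 1123 CPM against 1002 CPM. Of 14 measured simple epithelium keratins and apical genes 2 were at least 2-fold lower, Krt20 and Cldn6, and none higher. Of 20 measured squamous differentiation genes 1 was at least 2-fold higher, Krt78, and none lower, and of 12 basal cell genes only Cav1 was lower and none higher. Among cells with mostly Y-linked RNA the log2 ratio of Krt78 was -0.081. The foregut factors Sox2 and Pax9 were at 136 CPM against 147 CPM and at 134 CPM against 153 CPM.

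Of 11 measured club and airway secretory genes, 1 was at least 2-fold higher, Pigr, 2 were lower, Lyz2 and Lcn2, and 8 were neither. Among cells with mostly Y-linked RNA Lcn2 was 1.43-fold higher. Gsto1 was 1.66-fold higher among cells with mostly Xist RNA and 1.29-fold higher among cells with mostly Y-linked RNA. Wfdc2, a secreted protease inhibitor, was at 5079 CPM against 4138 CPM, Cyp2f2, an oxidase of club cells, at 1450 CPM against 1372 CPM, and Cbr2, a carbonyl reductase, at 1280 CPM against 827 CPM. The defining club cell genes Scgb1a1 and Scgb3a2, and the lung factor Nkx2-1, were at 0 in the mucous cells. Of 21 gastric and intestinal genes, 9 were at 0, among them Cdx1, Cdx2, Gata4, Gkn1 and Cldn18.

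Part of the cell cycle genes were lower than in the other epithelial p63-KO cells. Among 20 measured genes 11 passed 2-fold downward and 0 upward, around a median of -1.08 (log2). Mki67, a marker of cycling cells, was at 18.3 CPM against 50.2 CPM and had a UMI in 40 of the 160 mucous cells, or 2.53% after thinning. Top2a, which untangles DNA in mitosis, was at 30.3 CPM against 72.6 CPM. Wild-type Epcam-positive cells had 104 CPM of Mki67. The whole list summed to 311 CPM in mucous cells and 648 CPM in the other epithelial p63-KO cells. It summed to 299 CPM in the 112 p63-KO cells that also reached the Agr2 threshold, at a lower Agr2 level, with under 1 CP10K of Muc5b. Against those cells 0 of 17 measured genes were lower and 1 was higher.

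Markers of other cell types were lower in mucous cells than in the set they were compared with, which contained those types. The lowest ratios among genes with at least 100 CPM were those of Chgb, which the rule limited, at 13.7 CPM against 176 CPM, and of Plxna4, a semaphorin receptor, at 11.1 CPM against 103 CPM. Ror1, a Wnt receptor, was at 15.3 CPM against 129 CPM, and 825 CPM in fibroblast-like cells. Col1a1, a collagen chain of connective tissue, was at 47.0 CPM against 328 CPM. Among cells with mostly Y-linked RNA, described below, Col1a1 was at 28.4 CPM against 31.8 CPM and Col3a1 at 57.0 CPM against 58.2 CPM, so the difference was not seen there. All 14 measured neuroendocrine genes, all 7 ionocyte genes and 9 of 14 ciliated cell genes were at least 2-fold lower. The summed level of the 8 fibroblast genes was 464 CPM in mucous cells, 1669 CPM in the other epithelial cells and 39915 CPM in fibroblast-like cells. Among the other epithelial cells, 1 cluster of 138 cells was led by the muscle genes Tagln and Acta2 and held 0 mucous cells. Without cells that had at least 10 CP10K of Col1a1, Col3a1, Mfap4, Acta2 and Tagln together, an alternative chosen after seeing the data, 168 genes were higher and 834 lower, and Col1a1, Acta2 and Tagln had ratios above 0. When Chgb-high, Foxi1-positive and ciliated cells were left out of the compared set, 177 genes were higher and 664 lower, and the cilium genes Dnah12 and Spag16 had ratios above 0.

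A closer comparison was with 112 cells that reached the Agr2 threshold with under 1 CP10K of Muc5b. These Agr2-high Muc5b-low cells had 1643 CPM of Agr2, 1095 CPM of Tff2, 817 CPM of Spink4 and 778 CPM of Creb3l1. Mucous cells had 1.998-fold more Agr2, 2.78-fold more Tff2 and 1.65-fold more Creb3l1. Muc19 was at 6.09 CPM in the Agr2-high Muc5b-low cells, Spdef at 38.1 CPM and Pdzrn4 at 32.0 CPM. Folding and transport genes were close: 1 of 38 folding genes and 0 of 45 transport genes were at least 2-fold higher in mucous cells, with medians of 0.30 and 0.22. In that comparison 285 of 10865 measured genes were higher (2.62%) and 103 lower (0.948%), with a median of all genes near 0 (-0.0059). All 10 measured neuroendocrine genes were higher in mucous cells. The summed neuroendocrine list was at 241 CPM in all mucous cells and at 57.4 CPM without the 13 cells with neuroendocrine transcripts, against 56.97 CPM in the Agr2-high Muc5b-low cells. The Agr2-high Muc5b-low cells had a median of 21636.5 UMIs, under that of mucous cells, and their Muc5b was set by the rule.

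Set against the wild-type epithelium, the folding and glycosylation lists differed more widely. Of the measured genes, 29 of 38 folding genes, 27 of 45 transport genes and 17 of 24 O-glycan enzymes were at least 2-fold higher in mucous cells, and none lower. Over all genes, 1716 of 11502 were higher (14.9%) and 1679 lower (14.6%), and the median of all was -0.12 (log2). Of 24 squamous genes 22 were lower, and of 17 basal cell genes 13. Krt13 was at 7001 CPM and Krt15 at 10462 CPM in wild-type cells. Galnt7 was 9.72-fold and Gfpt1 9.65-fold higher in mucous cells than in wild-type cells. This comparison joins genotype, library and cell type, which cannot be told apart with 1 library each. The other p63-KO epithelial cells also had more of several of these genes than wild-type cells, with 476 CPM of Galnt7 and 265 CPM of Gfpt1 against 102 and 69.0 CPM.

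**Figure D3:**
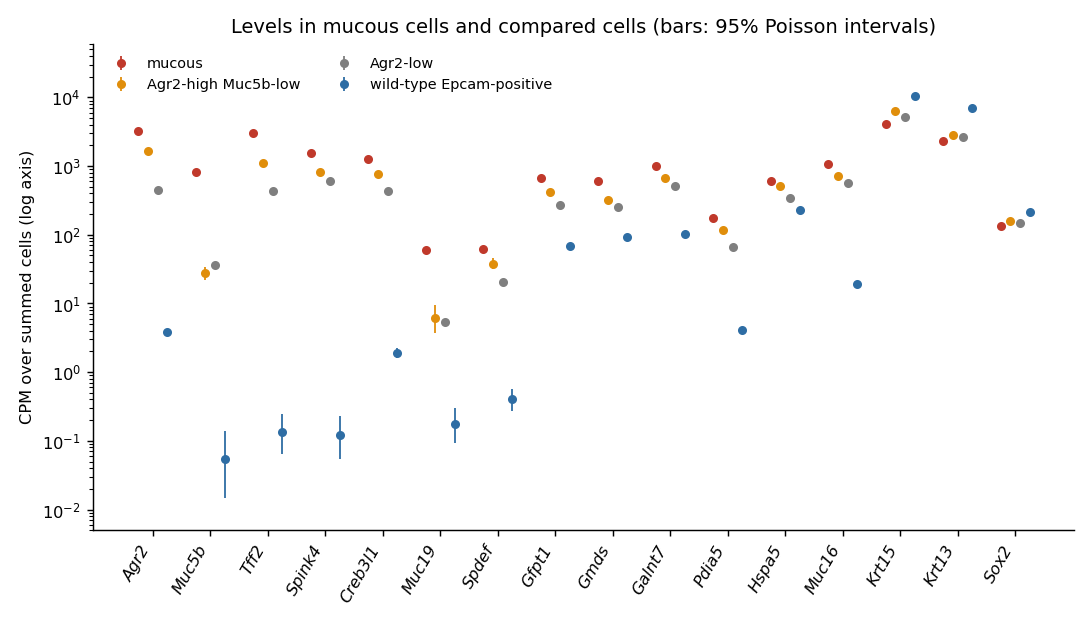
Level of 16 genes (x axis) in CPM over summed cells on a log axis, in mucous cells (red), Agr2-high Muc5b-low p63-KO cells (orange), Agr2-low p63-KO cells (grey) and wild-type Epcam-positive cells (blue), with exact 95% Poisson intervals that cover counting error only. Muc19 falls from 59.8 CPM in mucous cells to 6.09 CPM in Agr2-high Muc5b-low cells, while Hspa5 (605 and 507 CPM) and Sox2 (136 and 158 CPM) stay close between these sets.

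Clustering of all Epcam-positive p63-KO cells placed most mucous cells together. Of 12 clusters, the one led by Muc5b, Tff2, Pdzrn4 and Agr2 held 105 of the 160 mucous cells (65.6%), and mucous cells made up 61.0% of its 172 cells. Since the clustering used 2000 variable genes of the same cells, this shows where the rule's cells lie and is no test. The 55 mucous cells elsewhere were spread over 8 clusters with 1 to 12 each. Those inside the cluster had 1041 CPM of Muc5b and 3882 CPM of Tff2, and those outside 478 CPM and 1813 CPM. Cell cycle genes summed to 189 CPM inside and 488 CPM outside.

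Clustering of the 160 mucous cells alone gave 3 clusters, named by their leading genes. The first, with 81 cells, was led by Thbs1, an adhesive matrix protein, Ppp2r2b, a subunit of a phosphatase, Sox6, a transcription factor, and Clu, a secreted chaperone. The second, with 66 cells, was led by Psca, a surface protein of glandular epithelia, Slc7a11, a cystine transporter, A2ml1, Pdzrn4 and Arg1. The third, with 13 cells, was led by Stxbp5l, Asic2 and Snap25, genes of neurons and neuroendocrine cells. Median depths were 50368, 37856.5 and 76167 UMIs. On the first principal component used for this clustering, very shallow cells of the first cluster lay far from the others. A cell with 1191 UMIs was at -82.7 and a cell with 1070 UMIs at 87.6. The effect of such cells on the clusters was not tested.

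The second cluster had the highest levels of most secretory genes. Tff2 was at 4813 CPM there and 1894 CPM in the first cluster, Muc5b at 1170 and 586 CPM, and Agr2 at 4301 and 2732 CPM. Muc19 was at 98.8 and 33.3 CPM and Spdef at 92.6 and 44.3 CPM. Gmds, of GDP-fucose synthesis, was at 827 and 468 CPM, and Gfpt1 at 856 and 555 CPM. Clca1 was at 33.8 CPM in the second cluster, 49.1 CPM in the third and 3.83 CPM in the first, so the first cluster, with the most cells, had little of it. Krt15 went the other way, at 3419 CPM in the second and 4820 CPM in the first cluster. The first cluster also had the higher sum of 18 immediate-early and dissociation genes, 9437 against 6552 CPM, and of the fibroblast list, 496 against 263 CPM, and their part in the difference was not tested.

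The third cluster combined mucous and neuroendocrine transcripts. Sst, the hormone somatostatin, was at 307 CPM in these 13 cells, 3.60 CPM in the first cluster and 7.47 CPM in the second. Only 46.2% of the 13 cells had a Sst UMI. Snap25, of vesicle fusion, was at 176 CPM against 1.35 and 2.92 CPM, and 92.3% of the 13 cells had a UMI of it. Muc5b was at 713 CPM and Tff2 at 2685 CPM in the same cells. Chgb, whose upper limit was part of the rule, was at 50.1 CPM. Of the 13 cells, 9 lay in a cluster of 54 epithelial cells led by St18 and Sst. Without the 13 cells, an alternative chosen after seeing the data, 158 genes were higher and 1149 lower than in the other epithelial cells. Their median of 76167 UMIs was the highest of the 3 clusters, and the part of doublets in this cluster was not tested cell by cell. Scrublet, which scores cells against simulated doublets, called 9 of 2422 passing p63-KO cells (0.372%), 1 of them mucous. This was under the rate of 2.26% assumed from the number of barcodes, and whether the caller worked was not tested. Taking the 55 highest scores, as many as a rate of 2.26% gives, would remove 5 mucous cells.

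The p63-KO library contained cells with mainly Xist RNA and cells with mainly Y-linked RNA (Ddx3y, Eif2s3y, Kdm5d and Uty). A cell was assigned with at least 3 UMIs of one kind and at least 5 times those of the other. Mucous cells were 82 of 1190 Epcam-positive Xist cells (6.89%, 5.52 to 8.48) and 65 of 524 Y cells (12.4%, 9.71 to 15.5). A further 13 mucous cells were mixed or unclear. Of 20 Epcam-positive cells with at least 10 UMIs of each kind, 5 were mucous (25%, 8.66 to 49.1). Of these, 4 lay in the first cluster, 1 in the second and 0 in the third, and whether they were doublets was not tested. Both kinds of cells held both main clusters in unequal numbers, with 23 Xist and 48 Y cells in the first cluster and 51 Xist and 13 Y cells in the second. How many embryos stand behind each kind is not given in the sources used here, so sex and embryo cannot be told apart.

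Several genes differed between the first and second cluster in the same direction in both kinds of cells. The clusters were made from the values of all these cells together, so this is a description and no test. Tff2 was at 1954 CPM in the first and 4334 CPM in the second cluster among Xist cells, and at 1815 and 9018 CPM among Y cells. Muc5b was at 506 and 1082 CPM among Xist cells and at 576 and 1939 CPM among Y cells. Pdzrn4 was at 77.8 and 383 CPM, and at 85.5 and 394 CPM. Sox6 was lower in the second cluster in both, at 165 and 45.8 CPM, and at 179 and 30.04 CPM. Psca, the leading gene of the second cluster by summed level, did not follow, at 125 and 668 CPM among Xist cells and at 55.9 and 6.67 CPM among Y cells. Psca had a UMI in only 39.5% of all cells of the first cluster and 45.5% of the second, so its sums came from part of the cells. Krt13 was at 2498 and 2982 CPM among Xist cells and at 1813 and 534 CPM among Y cells, so the 13 Y cells of the second cluster had the lowest level. Hspa5 was at 597 and 594 CPM among Xist cells and at 575 and 1402 CPM among Y cells.

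**Figure D4:**
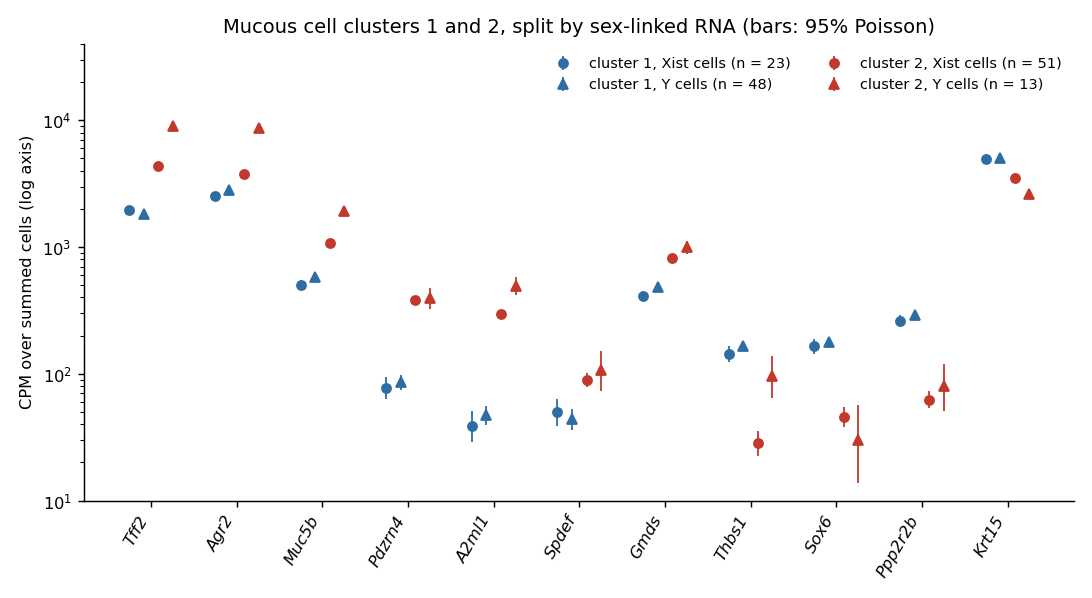
Level of 11 genes (x axis) in CPM over summed cells on a log axis, in mucous cell clusters 1 (blue) and 2 (red), split into Xist cells (circles) and Y cells (triangles), with exact 95% Poisson intervals that cover counting error only. Tff2, Muc5b, Pdzrn4 and A2ml1 are higher and Sox6 and Ppp2r2b lower in cluster 2 in both kinds of cells, and the 13 Y cells of cluster 2 have the highest Tff2, at 9018 CPM. Psca, Krt13 and Hspa5, which did not follow, are not shown.

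Among single mucous cells, levels of the main products varied together. After 135 cells were thinned to 20000 UMIs, Spearman's correlation of Muc5b was 0.69 with Agr2, 0.68 with Tff2, 0.57 with Pdzrn4, 0.55 with Gmds and 0.46 with Spink4. These cells share a library, and Agr2 and Muc5b were cut by the rule, so the values are descriptions. The correlation of Agr2 was 0.54 with Hspa5 and 0.46 with Pdia5, while that of Muc5b with Hspa5 was 0.25. Correlations of Muc5b with keratins were negative and mostly weaker, -0.43 with Krt15, -0.29 with Krt7, -0.21 with Krt4 and -0.13 with Krt13, and that with Cyp2f2 was -0.40. The correlation of Muc5b with the membrane mucin Muc16 was 0.029, and with Clca1 0.10.

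Every mucous cell had Muc5b by the rule, so cells with Muc19 alone could not be among them. Among 158 mucous cells thinned to 2000 UMIs, 16 had both a Muc5b and a Muc19 UMI, 1 had Muc19 without Muc5b and 91 had Muc5b without Muc19. Tff2 was seen in 93.5% of thinned cells with a Muc5b UMI and in 92.2% of those without one. Spink4 was seen in 89.7% and 86.3% of the same cells. A missing Muc5b UMI in a thinned cell reflects its level and the depth kept.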

How the data were processed

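Single-cell RNA-seq was analysed from 1 wild-type and 1 p63-KO library. The deposited values are UMI counts per gene (32285 features) and barcode. Cell Ranger 7.1.0 and build mm10 were used, per the submitters' processing notes. No annotation release, intron setting or removal of free RNA is given in the sources used here. The members and gene lists were chosen with earlier results of these data known. Here cells were filtered and chosen as described, counts were summed over cells and scaled to CPM, and folds were given with exact conditional binomial 95% intervals. A fold against 0 would take 3 counts as a floor. Log2 ratios had 1 CPM added, which understates low genes. Shares have exact Clopper-Pearson intervals. Depth was 8538384 UMIs in the mucous cells and 68501749 in the other epithelial p63-KO cells. No test was made between sets, since cells are not replicates. Summing weighs deep cells most.

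Cells were log-normalized and clustered by Leiden (leidenalg 0.10.2, igraph 0.11.9, scanpy 1.11.5) on 2000 variable genes, 30 principal components, 20 neighbours and resolution 1.0, and the mucous cells on 1000 genes, 20 components, 15 neighbours and resolution 0.5. Both clusterings left out mitochondrial, ribosomal protein and haemoglobin genes, Xist, Tsix, the named Y-linked genes and every symbol that begins with Gm, Gmds among them. Doublets were scored with Scrublet and kept, except in 2 alternatives. Gene positions are from GENCODE vM21 (GRCm38), matched by gene ID. Python 3.11.15, numpy 2.4.6, scipy 1.17.1 and pandas 2.3.3 were used. The ratios and intervals were tested on simulated counts. Named genes were those of the rule and markers, the 15 highest and 12 lowest ratios among genes with at least 100 CPM and a UMI in at least 20% of cells, and per list up to 4 with the largest ratios, up to 2 the other way and any with at least 500 CPM. Foxa3, Foxa1, Foxa2, Sox9, Xbp1, Ern2, Cftr, Muc1, Muc2, Muc4, Muc6, Tff3, Trp63 and cluster genes outside the rule were chosen after their values were seen. Alternatives were 19 planned settings and 5 chosen after seeing the data. Some genes that the rule names are not reported here.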

Additional observations from a re-analysis of the deposited data

How the results depend on the processing

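Of 93 named genes past 2-fold, all kept their direction under 19 of 24 alternatives, and 83 to 92 under the other 5. The 93 include genes of the rule and genes picked by their ratio in this contrast, and some settings could not change a direction. Fewer stayed past 2-fold. The lowest counts were 60 with genes measured from 20 CPM and 68 without Chgb-high, Foxi1-positive and ciliated cells. They were 69 in cells with mostly Y-linked RNA and 77 in cells with Y-linked and no Xist RNA. The 160 mucous cells became 104 with Agr2 of at least 24 CP10K and 87 with at most 5% mitochondrial UMIs. They numbered 65 among cells with Xist and no Y-linked RNA, 37 with Y-linked and no Xist RNA, 82 with mostly Xist and 65 with mostly Y-linked RNA. The count of genes higher (159) became 98 with Agr2 of at least 6 CP10K, 255 with at least 24, 289 with each cell weighing equally, 255 with genes measured from 1 CPM, 97 from 20 CPM, 766 with cells thinned to 2000 UMIs, 275 in cells with Xist and no Y-linked RNA and 398 in the reverse. The count of genes lower (1047) became 1948 with equal weights, 2183 from 1 CPM, 364 from 20 CPM, 664 without Chgb-high, Foxi1-positive and ciliated cells, 2831 with thinned cells and 1756 in cells with Y-linked and no Xist RNA. The cause was not tested. Of granule partners 3 were higher from 20 CPM and in both sets of Y cells. Folding genes higher were 3 at an Agr2 of 6, 12 at 24, 8 at 5% mitochondrial UMIs, 14 with equal weights, 15 thinned and 12 in strict Y cells. Transport genes higher were 10 at an Agr2 of 24, 5 at 5% mitochondrial UMIs, 7 with equal weights, 11 thinned, 6 in strict Xist cells and 11 in strict Y cells, and O-glycan enzymes 10, 11 and 11 with equal weights, thinned and in strict Y cells. Directions reversed (log2) without connective tissue and muscle transcripts for Acta2 0.44, Col1a1 0.18, Col1a2 0.35, Col3a1 0.21, Myh11 0.69 and Tagln 1.03. Without Chgb-high, Foxi1-positive and ciliated cells they did so for Dnah12 1.15, Spag16 0.98, Rp1 0.89, Dynlrb2 0.55, Cfap54 0.65, Dnah5 0.16, Foxj1 0.17, Dnah11 0.36, Ccdc39 0.30 and Ascl3 0.43. In strict Y cells they did so for Clca1 -0.42, Lcn2 0.99, Krt78 -0.18 and Flt1 0.49, and in cells with mostly Y-linked RNA for Clca1 -0.24, Emcn 0.60, Lcn2 0.42, Krt78 -0.081, Postn 0.22, Flt1 0.45, Cdh5 0.13 and Pecam1 0.57. Hoxb5 reversed to 0.32 within the members' 10th to 90th percentile of UMIs. No other named gene past 2-fold reversed under these alternatives. No paired analysis was possible because each genotype has 1 library and no test was made.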
